A study of Mus musculus with 4 samples.

Results

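The 10 genes described here, members of the circadian clock and its output, were chosen by name and followed through the cell types of a mouse inguinal fat pad: the PAR bZIP activators Dbp, Tef and Hlf, the REV-ERB repressors Nr1d1 and Nr1d2, the period genes Per2 and Per3, the repressors Ciart and Bhlhe41, and Arntl, which encodes the activator BMAL1. All 10 were found by symbol among the 31053 genes of the files. No measured value entered the choice, although earlier results of these data were known when it was made. The cells are the stromal vascular fraction (SVF), the cells left when mature adipocytes are removed, of the fourth inguinal white fat pad (iWAT), which in female mice holds the mammary ducts. The mice were C57BL/6 animals 8 weeks of age, and they were held either in the cold, at 4 °C for 24 h (2 libraries), or at room temperature (2 libraries), with no other allele or agent named in the labels. The sources used here do not give the sex of the animals, how many went into a library, the exact room temperature or the hour of dissection. The p-values therefore measure the spread between these libraries, which may be technical. Levels of clock genes vary over the day, and an effect of the hour of sampling on the values below was not tested.

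As background, BMAL1 and its partner CLOCK bind E-box motifs and switch on the period, cryptochrome and REV-ERB genes. PER and CRY proteins then block BMAL1 and CLOCK, and REV-ERB proteins repress Arntl itself by binding at ROR elements, so that Arntl runs out of phase with its targets. Dbp, Tef and Hlf are switched on by the same activator pair and carry the rhythm to other genes through D-box motifs, while BHLHE41 and CIART act as further brakes on E-box driven transcription. Clocks of this kind run in fat and mammary epithelium as in most tissues.

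The 4 libraries held 3871 to 6339 barcodes and 35198164 to 55160902 unique molecular identifiers (UMIs, each standing for 1 captured transcript), and any 2 of them shared 5 to 10 barcodes. Filtering left 15197 cells in 28 clusters, markers named 13 classes among them, and 10 classes could be tested. The 929 cells of mixed or unnamed clusters stayed outside the classes. The clock genes were kept out of the genes used for clustering. Names mean that cells resemble a type by its markers. Hormone-sensing luminal cells were led by Wfdc2, Prlr and Krt18 in one cluster and by Upk3a, Fgb and Cited1 in the other, and alveolar progenitors by Wfdc18, Fcgbp and Csn3. Fibroblasts, a class that includes adipose progenitors, were led by Dcn and Cxcl13, by Igfbp6 and Pi16, or by Col1a1 and Postn. Levels are given as CPM, a gene's UMIs divided by all UMIs of that class in that library and scaled to 1e+06, and fold changes and log2 differences are cold over room temperature.

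Positions are those of the GRCm38 build. Dbp spans chr7:45705088-45710203 and Arntl chr7:113207465-113314126, both on the plus strand, as does Tef at chr15:81802421-81826863. Hlf (chr11:90336536-90390895), Nr1d1 (chr11:98767932-98775333), Nr1d2 (chr14:18204054-18239127), Per2 (chr1:91415982-91459324), Per3 (chr4:151003652-151044665), Ciart (chr3:95878503-95882251) and Bhlhe41 (chr6:145858243-145865558) are on the minus strand. All are protein-coding. Exons of Dbp overlap those of Sphk2 on the other strand, Nr1d1 overlaps Thra, Tef overlaps Gm17597, Bhlhe41 overlaps Gm43909 and Arntl overlaps Gm45355, and Per3 lies within the span of Camta1 on its own strand. The sources used here do not say how counting used the strand, so reads of these overlaps could be split or shared.

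Upstream sequences were taken from RefSeq windows of 250 bases before to 50 after each start (GRCm38.p6), which matched 9 of the 10 members by symbol in 11 windows; Per2 had no entry. The windows were searched on both strands for the E-box CACGTG, the D-boxes TTATGTAA and TTACGTAA, and the ROR element GTAGGTCA, none of which overlapped another. Matches were found in 5 members, written in capitals in the stretches below, which are shown because they carry the motifs of the loop described above and leave out annotated exons except for the 30 bases of Arntl. Ciart held 3 E-boxes, starting 116, 58 and 44 bases before the start, Tef held 1 before each of its 2 starts, and Bhlhe41 held 1, 153 bases before its start. Per3 held the D-box TTATGTAA at 205 and at 158 bases before its start, and Arntl held the ROR element 30 bases into the transcript. Of all 32851 windows in the table, 7.15% held CACGTG, 0.938% TTATGTAA, 0.119% TTACGTAA and 0.621% GTAGGTCA. A match is a description of the letters and not evidence of binding.
Ciart, chr3:95882252-95882478, minus strand: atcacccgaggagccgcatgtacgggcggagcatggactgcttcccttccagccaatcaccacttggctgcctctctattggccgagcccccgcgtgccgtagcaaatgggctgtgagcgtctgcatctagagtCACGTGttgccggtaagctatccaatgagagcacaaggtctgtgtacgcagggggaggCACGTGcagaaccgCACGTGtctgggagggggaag
Tef, second start, chr15:81811164-81811413, plus strand: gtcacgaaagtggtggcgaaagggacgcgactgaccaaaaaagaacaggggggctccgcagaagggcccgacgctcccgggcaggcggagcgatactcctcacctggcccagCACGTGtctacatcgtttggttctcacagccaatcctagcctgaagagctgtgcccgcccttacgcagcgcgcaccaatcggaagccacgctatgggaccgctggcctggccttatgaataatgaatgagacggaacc
Bhlhe41, chr6:145865559-145865670, minus strand: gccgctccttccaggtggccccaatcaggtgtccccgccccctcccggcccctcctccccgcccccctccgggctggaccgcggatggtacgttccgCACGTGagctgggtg
Per3, chr4:151044666-151044915, minus strand: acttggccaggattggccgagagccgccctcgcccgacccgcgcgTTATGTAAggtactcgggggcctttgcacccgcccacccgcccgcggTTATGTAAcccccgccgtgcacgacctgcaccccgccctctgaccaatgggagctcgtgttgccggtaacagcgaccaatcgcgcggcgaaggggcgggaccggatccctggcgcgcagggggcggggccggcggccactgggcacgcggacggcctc
Arntl, chr7:113207529-113207558, plus strand: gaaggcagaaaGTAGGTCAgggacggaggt

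Where each gene was expressed was described first, over the 10 tested classes and all 4 libraries (mean ± SD, n = 4). Dbp was highest in pericytes and smooth muscle (154 ± 17.6 CPM) and vascular endothelium (146 ± 31.1 CPM), whose ranges overlapped, and lowest in dendritic cells (4.62 ± 0.813 CPM). Tef had its highest mean in vascular endothelium (88.3 ± 14.5 CPM), and the 5 epithelial, stromal and endothelial classes, down to hormone-sensing cells at 38.9 ± 12.6 CPM, had higher means than the immune classes. The lowest alveolar library (21.3 CPM) still lay below the highest macrophage library (24.1 CPM). Hlf was led by alveolar progenitors (108 ± 70.9 CPM), followed by vascular endothelium (36.6 ± 10.96 CPM), and gave no UMI in B cells. The 5 classes with the highest Hlf were thus again epithelial, stromal or endothelial, and the immune classes had means of 3.99 CPM or less, with T cells overlapping the epithelial range.

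Nr1d1 ran from 138 ± 22.7 CPM in vascular endothelium through macrophages (122 ± 35.2 CPM) to hormone-sensing cells (26.1 ± 10.3 CPM), all above the 4 lymphoid and dendritic classes, whose means were 5.16 CPM or less. Nr1d2 was spread more evenly, from 78.5 ± 15.6 CPM in pericytes to 15.9 ± 5.10 CPM in T cells. Per2 was highest in pericytes (43.1 ± 10.7 CPM), with no overlap with the next class, vascular endothelium (20.2 ± 6.07 CPM). Per3 had its highest mean in alveolar progenitors (81.8 ± 58.6 CPM), which rests on the cold libraries: at room temperature their mean was 37.3 CPM, below vascular endothelium (46.75 CPM) and fibroblasts (41.2 CPM). Over all 4 libraries there was no step between neighbours down to pericytes at 30.4 ± 3.42 CPM, and then a drop to macrophages at 8.84 ± 2.48 CPM.

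Bhlhe41 was epithelial: hormone-sensing cells held 280 ± 163 CPM and alveolar progenitors 268.5 ± 194 CPM, and the next class, B cells, held 16.3 ± 5.59 CPM, with no overlap. In fibroblasts, macrophages, dendritic cells, T cells and natural killer cells its highest library lay under 5% of the mean in hormone-sensing cells, a level that is not read as expression here because free RNA in droplets could give it. Basal cells, which were too few to test, held 152 to 316 CPM. Ciart and Arntl had their highest means in immune cells. Ciart reached 33.0 ± 37.2 CPM in B cells and 22.0 ± 2.27 CPM in macrophages, and Arntl 29.1 ± 4.62 CPM in macrophages and 23.2 ± 5.33 CPM in B cells.

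**Figure D1:**
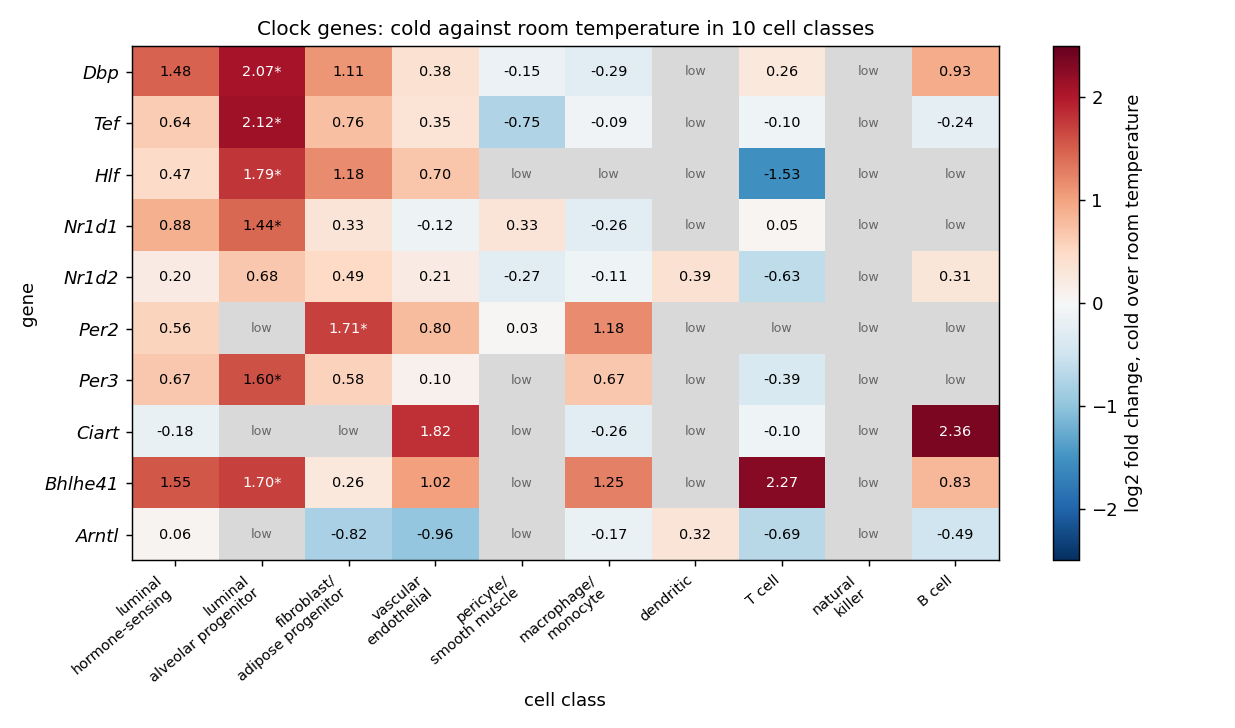
Each cell gives the log2 fold change of 1 clock gene (rows), cold over room temperature, in 1 of the 10 tested cell classes (columns), from edgeR on summed UMIs with 2 libraries per group; red is higher in cold, an asterisk marks an adjusted p under 0.05 over all genes of the class, and grey cells marked low had too few counts to test. The asterisks stand in the alveolar column (6 genes) and at Per2 in fibroblasts.

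In alveolar progenitors, the luminal cells that give rise to milk-making cells, 6 of the 7 members with enough counts rose in the cold and none fell: Tef, Dbp, Hlf, Bhlhe41, Per3 and Nr1d1. The rises were 2.72-fold for Nr1d1 to 4.34-fold for Tef. They included all 3 PAR bZIP activators and the repressors Nr1d1, Per3 and Bhlhe41. Of the 6237 genes tested in this class, 1.89% rose and 0.802% fell (edgeR quasi-likelihood test, Benjamini-Hochberg adjusted p under 0.05).

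Among the PAR bZIP factors, which bind D-boxes, Tef stood at 133 and 94.7 CPM in cold replicates 1 and 2 and at 21.3 and 26.1 CPM in the 2 room-temperature libraries, a log2 fold change of 2.12 (SE 0.32, adjusted p = 0.000773). Hlf stood at 172 and 166 CPM against 50.5 and 42.8 CPM (1.79, SE 0.29, adjusted p = 0.00113). The cold libraries were close for Hlf, while for Tef cold replicate 1 lay well above cold replicate 2. Neither gene overlapped between groups. Dbp stood at 186 and 71.7 CPM against 31.9 and 27.7 CPM (2.07, SE 0.37, adjusted p = 0.00296), so cold replicate 1 lay far above cold replicate 2, which still exceeded both room-temperature libraries.

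Of the repressors, Bhlhe41 stood at 520.0 and 319.9 CPM in cold against 93.0 and 141 CPM (log2 fold change 1.70, SE 0.29, adjusted p = 0.00199). Per3 stood at 160.4 and 92.1 CPM against 31.9 and 42.8 CPM (1.6, SE 0.32, adjusted p = 0.00592). Nr1d1, which codes for REV-ERB alpha, stood at 137 and 79.3 CPM against 31.9 and 40.4 CPM (1.44, SE 0.32, adjusted p = 0.014). In all of these, cold replicate 1 was the highest library and both cold libraries exceeded both room-temperature ones. Nr1d2, the second REV-ERB gene, had 100.5 and 79.3 CPM against 61.1 and 48.3 CPM (0.68, SE 0.30) and did not pass (adjusted p = 0.297).

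The other 3 members had too few counts in this class for a test. Arntl, the activator that REV-ERB proteins repress, had 5 and 4 UMIs in cold and 10 and 26 at room temperature, or 9.67 and 10.2 CPM against 26.6 and 20.6 CPM, so both cold libraries lay below. Per2 overlapped between groups, with 19.3 and 12.8 CPM in cold and 18.6 and 14.3 CPM at room temperature. Ciart gave 1 UMI in cold replicate 2, 1 in room-temperature replicate 1 and none in the others, where the limit of 3 UMIs stands for 5.80 CPM in cold replicate 1 and 2.37 CPM in room-temperature replicate 2. All 7 tested members had both cold libraries above both room-temperature libraries, as 28.9% of the genes tested in the class did, while 17.8% had both below. The median log2 fold change was 1.70 over the 7 members tested and -0.02 over all genes of the class.

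**Figure D2:**
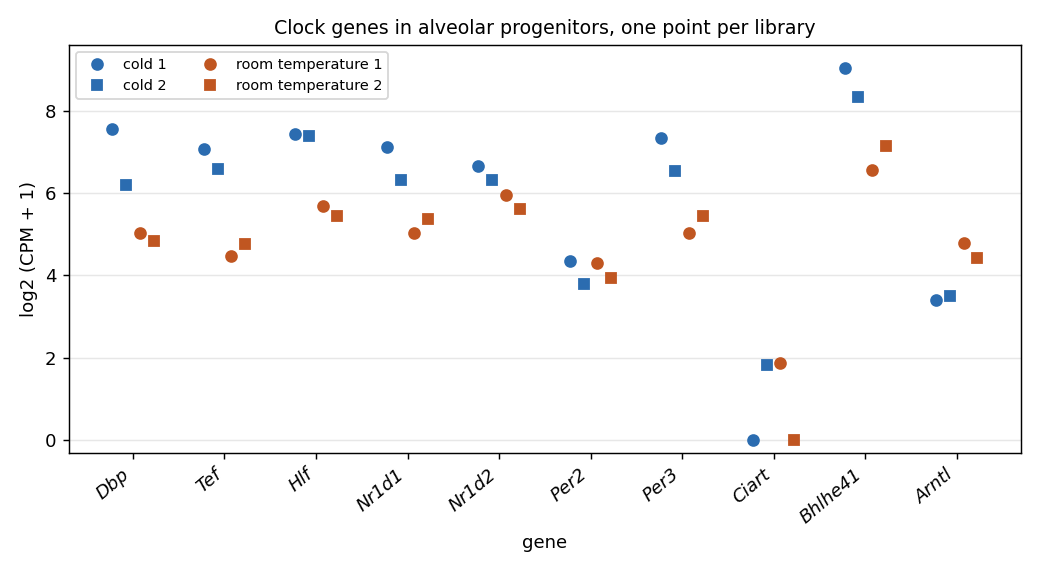
Levels of the 10 clock genes (horizontal axis) in alveolar progenitors, as log2 (CPM + 1), 1 point per library; circles are replicate 1 and squares replicate 2, blue is cold and orange room temperature. Cold points lie above room-temperature points from Dbp to Nr1d2 and for Per3 and Bhlhe41, and below them for Arntl.

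These counts came from 110 and 66 cells in cold and 39 and 80 in room-temperature libraries, with 4703 and 5920 UMIs per cell against 9647 and 15790. The 8 markers of the class itself summed to 18320 and 17270 CPM in cold and 11880 and 12510 CPM at room temperature. Depth and marker level thus moved with the group, and their part in the result was not tested. The 7 hormone-sensing markers summed to 278 to 392 CPM with overlapping groups, the 6 vascular endothelial markers to 21.3 and 17.9 CPM in cold against 10.6 and 15.8 CPM, and the 7 pericyte markers, of which 5 were at 0 in all libraries, to 114 and 97.3 CPM against 55.8 and 98.95 CPM. All 6 adipocyte markers were at 0. Some other sums were lower in cold without overlap: the 7 basal markers stood at 58.0 and 38.4 CPM against 98.4 and 70.5 CPM, the 7 fibroblast markers at 81.2 and 41.0 CPM against 101 and 98.95 CPM, and the 5 B-cell markers at 0 and 7.68 CPM against 87.7 and 14.3 CPM. Mitochondrial UMIs were 6.58% and 6.01% in cold against 7.77% and 7.02%. The part of these in the result was not tested. Without cold replicate 1 none of the 6 passed (log2 fold changes 1.02 to 1.88, adjusted p 0.0807 to 0.626), and 15 genes of the class were called in place of 168. DESeq2 called 4 of the 6, with Per3 at an adjusted p of 0.0906 and Nr1d1 at 0.24.

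**Figure D3:**
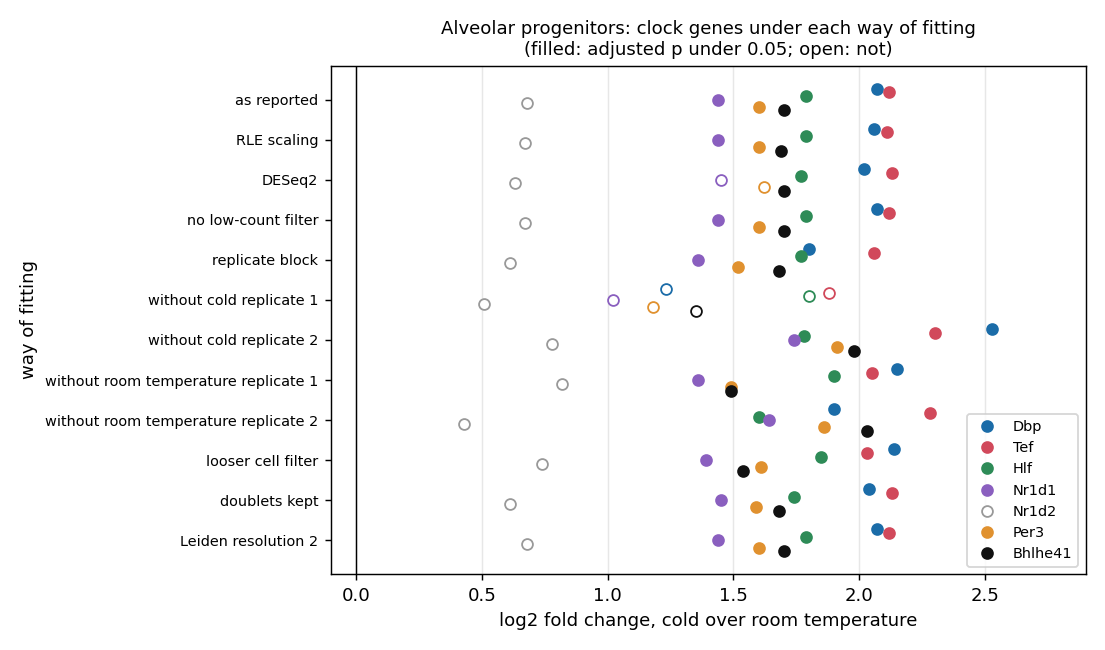
Log2 fold change of the 7 clock genes tested in alveolar progenitors (horizontal axis) under each way of fitting (vertical axis); filled points have an adjusted p under 0.05 and open points do not. Leaving out cold replicate 1 opens every point while the values stay above 0, and DESeq2 opens Nr1d1 and Per3.

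In hormone-sensing luminal cells, the ductal cells that carry the prolactin, estrogen and progesterone receptors, all 10 members could be tested and none passed. In all, 1 of the 12798 genes tested passed in this class (0.00781%) under edgeR, and 3 members had an unadjusted p under 0.05, as had 1287 genes. There were 4 members with both cold libraries above both room-temperature libraries, as 18.3% of all genes had, and none with both below, as 24.5% had. The median log2 fold change was 0.60 over the 10 members and -0.02 over all genes.

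Bhlhe41 had the largest difference in these cells, with 476 and 351 CPM in cold and 121 and 173 CPM in room-temperature libraries (log2 difference 1.55, SE 0.23, adjusted p = 0.436). Dbp had 87.8 and 40.4 CPM against 21.9 and 25.7 CPM (1.48, SE 0.40, adjusted p = 0.472). Nr1d1 had 40.4 and 26.5 CPM against 17.1 and 20.5 CPM (0.88, SE 0.25), and Tef 56.4 and 36.7 CPM against 26.5 and 36.1 CPM (0.64, SE 0.26). These are the 4 genes whose groups did not overlap, and cold replicate 1 was the highest library for each. DESeq2 called 2 members, Bhlhe41 (adjusted p = 5.225e-07) and Dbp (adjusted p = 0.0385), among 92 genes.

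The other 6 overlapped between groups. Per3 had 62.9 and 34.8 CPM in cold and 22.1 and 44.2 CPM in room-temperature libraries (log2 difference 0.67, SE 0.41), and Per2 had 23.9 and 13.6 CPM against 10.6 and 16.5 CPM (0.56, SE 0.35). Hlf, at 3.40 to 11.3 CPM, and Nr1d2, at 22.5 to 33.5 CPM, differed by 0.47 (SE 0.53) and 0.20 (SE 0.21). Arntl lay at 6.56 to 8.07 CPM (0.06, SE 0.24), and Ciart stayed between 1.02 and 1.73 CPM (-0.18, SE 0.50).

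The 2 clusters of this class took different shares of each library. The Prlr-led cluster made up 94.6% and 76.8% of the cold cells and 27.2% and 75.7% of the room-temperature cells, and the Upk3a-led cluster held the rest. Within the Prlr-led cluster Bhlhe41 had a log2 fold change of 1.14 (SE 0.14), with 507 and 475 CPM against 231 and 228 CPM (adjusted p = 0.333), in a cluster where 0.0087% of genes passed. In the Upk3a-led cluster it had 201 and 84.0 CPM against 85.1 and 77.2 CPM (0.79, SE 0.35, adjusted p = 0.999), and 0% of genes passed there. Cold replicate 1 alone was high in that cluster, from 27 cells, against 117 in cold replicate 2 and 329 and 33 at room temperature. Dbp lay apart in both clusters (88.2 and 48.4 CPM against 31.3 and 31.3 CPM, and 84.2 and 23.2 CPM against 18.8 and 15.9 CPM). Tef lay apart only in the Upk3a-led cluster and overlapped in the Prlr-led one (57.8 and 41.3 CPM against 39.0 and 45.8 CPM). Nr1d1 lay apart only in the Prlr-led cluster and overlapped in the Upk3a-led one (28.3 and 11.45 CPM against 14.35 and 18.3 CPM). None of these passed. A cluster of 648 cells with markers of both luminal types, outside the classes, had Bhlhe41 at 483 and 401 CPM in cold and 168 and 204 CPM at room temperature (1.31, SE 0.15, adjusted p = 0.0684), again with 0% of genes past the threshold. The markers of alveolar progenitors within the hormone-sensing class summed to 102 and 269 CPM in cold and 699 and 635 CPM at room temperature, and the 5 red cell markers to 343 and 212 CPM against 31.3 and 31.8 CPM; their part in these differences was not tested.

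**Figure D4:**
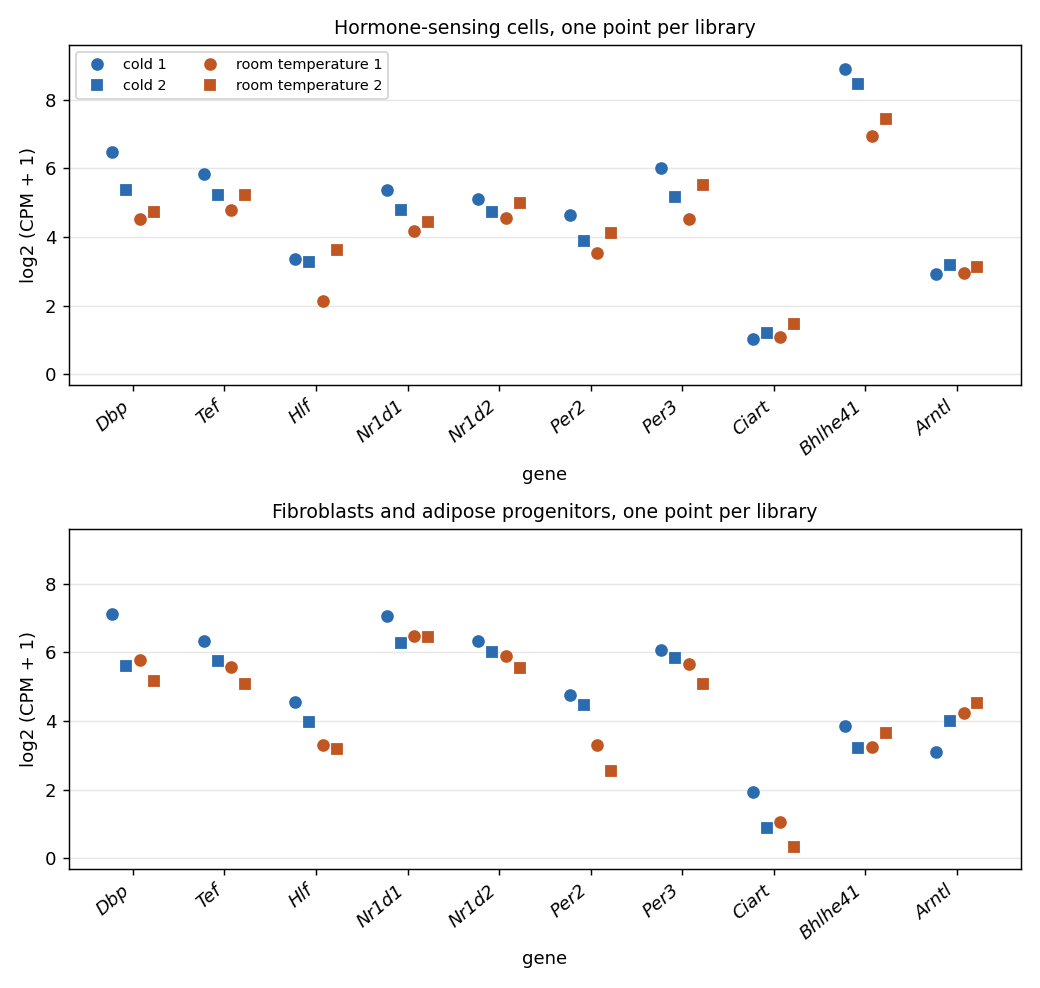
Levels of the 10 clock genes (horizontal axis) as log2 (CPM + 1) in hormone-sensing cells (top) and fibroblasts (bottom), 1 point per library; circles are replicate 1, squares replicate 2, blue is cold and orange room temperature. The groups do not overlap for Bhlhe41 and Dbp in the top panel and for Per2 and Hlf in the bottom panel, where Bhlhe41 overlaps.

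In fibroblasts and adipose progenitors 9 members could be tested and 1 rose, the period gene Per2, at 3.27-fold; none fell. Per2 stood at 26.2 and 21.1 CPM in cold and 8.89 and 4.87 CPM in room-temperature libraries (log2 difference 1.71, SE 0.28, adjusted p = 0.036). Of the 11618 genes tested, 1.25% rose and 1.69% fell. Per2 passed within the Cxcl13-led cluster taken alone (27.6 and 24.0 CPM against 9.88 and 4.07 CPM, 1.54, SE 0.29, adjusted p = 0.0286), a cluster where 2.08% of genes passed. The lowest of these values rests on 2 UMIs in 36 cells, under the 6.107 CPM that 3 UMIs stand for there. In the Pi16-led cluster (1.35, SE 0.43, adjusted p = 0.283, 0.533% of genes passing) and the Postn-led cluster (1.47, SE 0.41, adjusted p = 0.106, 2.65% passing) it did not pass, though the groups did not overlap in either. Without cold replicate 1 Per2 had a log2 fold change of 1.52 (adjusted p = 0.284) and without cold replicate 2 one of 1.89 (adjusted p = 0.0563).

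Of the 9, 6 members had an unadjusted p under 0.05 in fibroblasts, as had 2221 of the 11618 genes. Hlf came nearest to the threshold after Per2, with 22.4 and 14.7 CPM in cold and 8.81 and 8.20 CPM in room-temperature libraries (log2 difference 1.18, SE 0.25, adjusted p = 0.0629). Tef had 80.5 and 52.5 CPM against 46.9 and 33.1 CPM (0.76, SE 0.26), and Per3 65.9 and 56.7 CPM against 49.3 and 33.1 CPM (0.58, SE 0.21). With Per2 and Nr1d2 (80.0 and 63.1 CPM against 58.5 and 45.9 CPM, 0.49, SE 0.19), these are the 5 tested members whose cold libraries both lay above, as 22% of all genes did. Arntl was the 1 member with both cold libraries below, as 29.1% of genes were, at 7.62 and 15.0 CPM in cold and 18.0 and 22.0 CPM at room temperature (-0.82, SE 0.28, adjusted p = 0.179).

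The remaining members overlapped in fibroblasts. Dbp had 138 CPM in cold replicate 1 but 47.2 CPM in cold replicate 2, against 53.7 and 34.9 CPM in room-temperature libraries (log2 difference 1.11, SE 0.47). Nr1d1 had 133 and 76.4 CPM against 88.1 and 85.9 CPM (0.33, SE 0.26), and Bhlhe41 13.6 and 8.33 CPM against 8.56 and 11.5 CPM (0.26, SE 0.30). For Dbp and Nr1d1 it was 1 cold library that stood high. Ciart had 0.256 to 2.81 CPM and was not tested. The median log2 fold change was 0.58 over the 9 members tested and 0 over all genes.

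Fibroblast clusters, too, took different shares of the libraries: the Cxcl13-led cluster made up 65.8% and 55.9% of the cold cells and 27.0% and 10.1% of the room-temperature cells, and the Pi16-led cluster 12.9% and 28.8% against 45.8% and 56.9%. In the Postn-led cluster, 153 and 71 cells in cold and 364 and 117 at room temperature, Arntl gave 3 and 1 UMIs in cold, at or under the limit of 3 UMIs (3.08 and 6.245 CPM), against 12.7 and 16.0 CPM from 40 and 20 UMIs in room-temperature libraries, so no fold is given. Dbp there had 138 and 47.9 CPM against 40.9 and 31.2 CPM (log2 difference 1.53, SE 0.39, adjusted p = 0.0789). Nr1d2 there had 80.1 and 77.0 CPM against 52.0 and 38.4 CPM (0.86, SE 0.22, adjusted p = 0.082), so these groups lay apart without passing. So did Hlf, at 42.1 and 27.1 CPM against 13.9 and 19.2 CPM (1.29, SE 0.32, adjusted p = 0.0736). Nr1d1 did too, at 145 and 83.3 CPM against 72.6 and 72.1 CPM (0.81, SE 0.26). In the Pi16-led cluster Arntl overlapped (-0.37, SE 0.32). Nr1d1 lay lower in cold there, at 87.8 and 72.85 CPM against 94.4 and 91.1 CPM (-0.28, SE 0.17), and overlapped in the Cxcl13-led cluster. Among the markers of other types summed in the class, those of mast cells were at 44.7 CPM in cold replicate 1 and at most 1.91 CPM in the other libraries, and those of macrophages at 36.6 and 33.3 CPM in cold against 62.6 and 51.5 CPM. Alveolar markers stood at 317 and 303 CPM in cold against 239 and 227 CPM, hormone-sensing markers at 177 and 164 CPM against 141 and 100.2 CPM, and mitochondrial UMIs at 1.72% and 2.05% against 2.47% and 2.99%. The part of these was not tested.

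**Figure D5:**
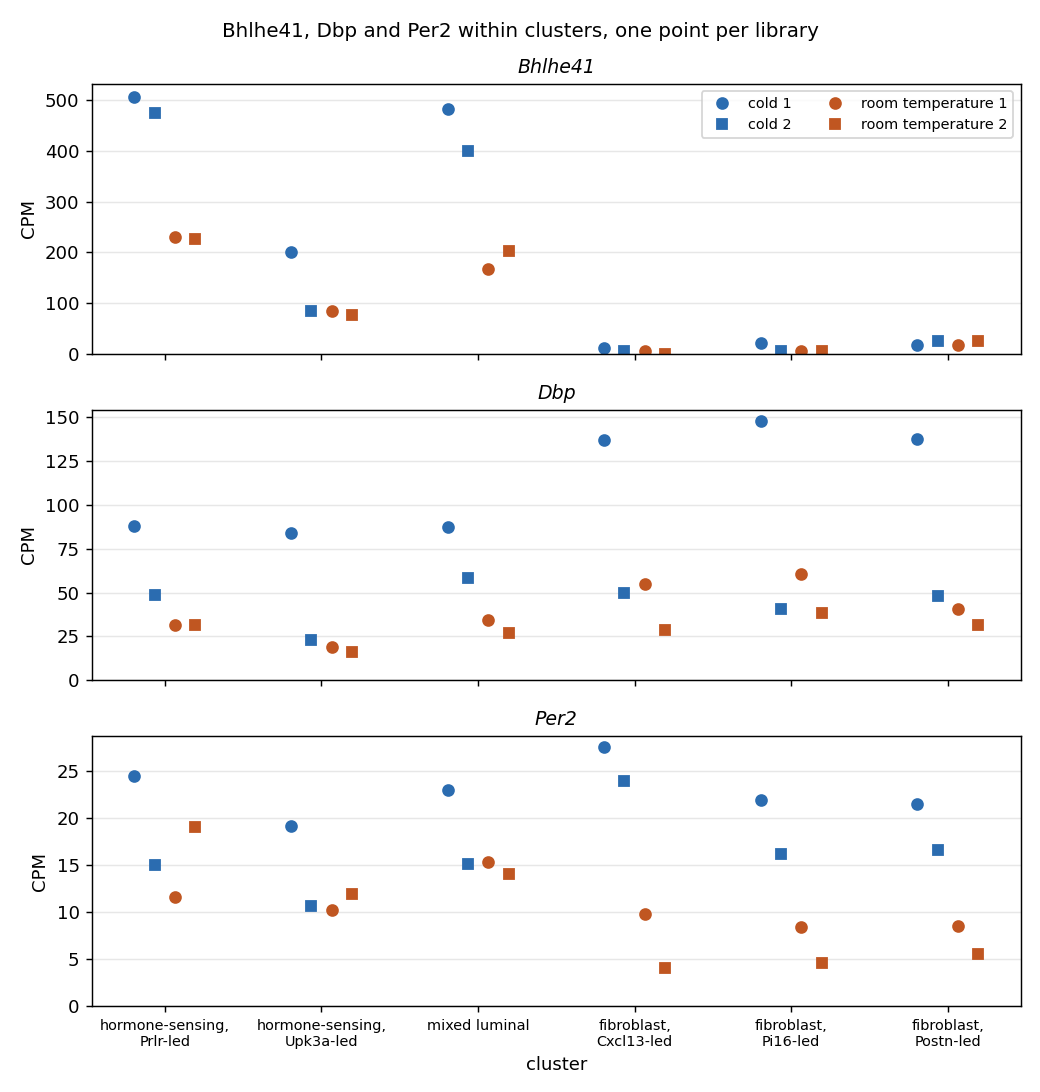
Levels of Bhlhe41 (top), Dbp (middle) and Per2 (bottom) in CPM (vertical axes, starting at 0) in 6 clusters, 1 point per library; circles are replicate 1, squares replicate 2, blue is cold and orange room temperature. Bhlhe41 is high in the luminal clusters, Dbp is highest in cold replicate 1 in every cluster shown, and Per2 separates the groups in the 3 fibroblast clusters.

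No member passed in the other 7 tested classes by edgeR or by DESeq2, and an unadjusted edgeR p under 0.05 was found for 3 members in vascular endothelium (1056 of 10255 genes), 2 in macrophages (1257 of 11175 genes), 4 in T cells (2018 of 10088 genes) and 2 in B cells (409 of 7635 genes). The share of all genes past the threshold was 0.00975% in vascular endothelium, 0% in pericytes, 0.242% in macrophages, 0.218% in dendritic cells, 1.7% in T cells, 1.07% in natural killer cells and 0% in B cells, and all 10 members had too few counts in natural killer cells. In vascular endothelium Ciart had 13.8 and 26.6 CPM in cold and 6.18 and 5.29 CPM in room-temperature libraries (log2 difference 1.82, SE 0.44, adjusted p = 0.242). Per2 had 25.8 and 25.1 CPM there against 14.6 and 15.3 CPM (0.80, SE 0.24, adjusted p = 0.349), while Dbp, at 179 and 148 CPM against 153 and 104 CPM, overlapped. In B cells Ciart had 88.1 and 22.9 CPM against 10.9 and 10.0 CPM (2.36, SE 0.71, adjusted p = 0.863), with cold replicate 1 far above the rest.

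In macrophages the REV-ERB genes overlapped between groups, Nr1d1 at 140 and 83.5 CPM in cold and 162 and 103.5 CPM in room-temperature libraries (log2 difference -0.26, SE 0.30) and Nr1d2 at 51.5 and 42.3 CPM against 53.2 and 47.5 CPM (-0.11, SE 0.16). Per3 was at 10.3 and 11.6 CPM against 6.98 and 6.54 CPM (0.67, SE 0.24, adjusted p = 0.379). In pericytes Dbp stayed at 131 to 174 CPM with overlapping groups (-0.15, SE 0.28). T cells had negative values for Hlf, at 2.18 and 1.92 CPM in cold against 7.455 and 4.404 CPM (-1.53, SE 0.44, adjusted p = 0.122), Nr1d2 (-0.63, SE 0.25) and Arntl, at 11.9 and 15.4 CPM against 21.4 and 19.97 CPM (-0.69, SE 0.19, adjusted p = 0.113). Bhlhe41 went the other way in T cells (2.27, at 0.587 to 5.69 CPM) and stood at 1.25 in macrophages (1.87 to 6.23 CPM). Free RNA could give such levels, and neither passed. A T-cell cluster that held 393 and 225 cells in cold held 44 and 9 at room temperature, and its part in the T-cell values was not tested.

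Whether the cold effect differed between classes was tested directly, in 1 edgeR fit over all tested classes with the library as block. Tef alone of the 10 members passed (adjusted p = 0.0114), where 1.59% of 13739 genes did; Bhlhe41 (adjusted p = 0.0595) and Dbp (adjusted p = 0.0705) came next, and 8 members had an unadjusted p under 0.05. Without cold replicate 1, room-temperature replicate 1 or room-temperature replicate 2 no member passed. Pairs were read from that fit for 6 of the classes (hormone-sensing, alveolar, fibroblast, macrophage, T cell and vascular). In these 15 pairs, 6 of 150 member differences passed, where 0.309% of all differences did. Their p-values were adjusted over the genes of each pair alone, not over the 15 pairs together. The 150 include members with too few counts in a class, such as Ciart in alveolar progenitors. All but 1 set alveolar progenitors against another class.

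The effect on Tef was larger in alveolar progenitors than in macrophages by 2.17 (log2, SE 0.37, adjusted p = 0.00683), than in T cells by 2.13 (SE 0.41, adjusted p = 0.0195) and than in vascular endothelium by 1.70 (SE 0.36, adjusted p = 0.0213). Hlf differed between alveolar progenitors and T cells by 3.30 (SE 0.64, adjusted p = 0.0236). The effect on Bhlhe41 was larger than in fibroblasts both in alveolar progenitors, by 1.54 (SE 0.32, adjusted p = 0.0322), and in hormone-sensing cells, by 1.45 (SE 0.30, adjusted p = 0.0221). Bhlhe41 in fibroblasts, taken as a class, lay at the level that free RNA could give. Their Postn-led cluster lay in every library above 5% of the hormone-sensing mean over all libraries. That limit was not set library by library, and the highest hormone-sensing library held 475.8 CPM. The part of free RNA in this cluster was not tested. The cluster had 17.45 and 24.98 CPM in cold against 18.06 and 26.43 CPM (log2 difference 0.03, SE 0.33). No member differed between alveolar progenitors and hormone-sensing cells at the threshold.

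The share of cells with a UMI was compared after each cell was thinned to 3000 UMIs, with shallower cells left out. Bhlhe41 was then seen in 66.7% (exact 95% binomial interval 53.7 to 78.0) and 71.7% (56.5 to 84.0) of alveolar progenitors in cold and in 18.8% (7.21 to 36.4) and 33.8% (23.0 to 46.0) at room temperature. Before thinning the shares were 71.8% and 71.2% against 35.9% and 75.0%. In hormone-sensing cells the thinned shares were 72.6% and 60.5% in cold and 27.9% and 45.3% at room temperature, and in fibroblasts 2.03% to 4.82%. The intervals cover counting error only, and 47 and 20 alveolar cells in cold and 7 and 9 at room temperature were too shallow to enter.

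Dbp was seen after thinning in 34.9% and 21.7% of alveolar progenitors in cold and in 6.25% and 7.04% at room temperature, and unthinned in 47.3% and 31.8% against 23.1% and 27.5%. Hlf was seen in 30.2% and 32.6% in cold, in 9.86% in room-temperature replicate 2 and in 0 of 32 cells in room-temperature replicate 1, which allows a share of up to 9.38% (3 counts of the total; the exact interval reaches 10.9%) of cells with a UMI at this depth. Unthinned, Hlf was seen in 30.8% of that library's cells. Tef followed the same order, with 30.2% and 21.7% against 3.12% and 11.3%. Per2 in fibroblasts was seen in 5.94% and 7.16% of cells in cold and in 2.36% and 0.95% at room temperature. In each of these the cold libraries lay above the room-temperature libraries, as they did in the summed counts. Arntl went the other way in fibroblasts, with 1.61% and 4.44% in cold against 5.74% and 7.59%. Some members that lay apart in the sums overlapped after thinning. Dbp in hormone-sensing cells was seen in 21.8% and 10.7% in cold against 5.9% and 12.5%. Nr1d2 in alveolar progenitors was seen in 14.3% and 19.6% against 15.6% and 16.9%. Tef in fibroblasts was seen in 23.1% and 12.8% against 13% and 9.81%. Per3 in hormone-sensing cells overlapped in the sums and lay apart after thinning (18.7% and 11.1% against 6.35% and 8.59%). Such orders can change with the depth chosen. Thinned to 1500 UMIs, Per3 in hormone-sensing cells overlapped (9.64% and 5.06% against 3.81% and 7.63%). At that depth Tef in fibroblasts lay apart (12.46% and 10.02% against 7.29% and 5.85%).

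Other genes of the clock were read in the same fits. Of Per1, Cry1, Cry2, Clock, Npas2, Rora, Nfil3 and Bhlhe40, none that had enough counts passed in hormone-sensing cells, alveolar progenitors or fibroblasts. Per1 had 126 and 97.3 CPM in cold against 50.5 and 63.3 CPM in alveolar progenitors (log2 fold change 0.83, SE 0.29, adjusted p = 0.156), a gap without overlap that did not pass. In T cells 3 of these genes fell: Nfil3, a repressor at D-boxes (log2 fold change -1.35, SE 0.20, adjusted p = 0.0219), the period gene Per1 (-1.26, SE 0.12, adjusted p = 0.00822) and Rora, an activator at ROR elements (-0.98, SE 0.18, adjusted p = 0.0451). These and Per1 in alveolar progenitors were named after their values were seen. From a list of 8 kinases, ligases and other factors of clock protein turnover, none of the 7, 6 and 7 tested in hormone-sensing cells, alveolar progenitors and fibroblasts passed.

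Among 7 genes taken as outputs of the clock, Klf9, a Krüppel-like factor, rose in alveolar progenitors, from 77.1 and 84.7 CPM at room temperature to 334 and 251 CPM in cold (log2 fold change 1.74, SE 0.28, adjusted p = 0.000939), and no other of the 6 tested passed. In fibroblasts 3 of 7 rose: Klf9 (1.21, SE 0.20), the cell cycle inhibitor Cdkn1a (1.04, SE 0.19) and Nampt, an enzyme of NAD synthesis (0.81, SE 0.11). None passed in hormone-sensing cells. Klf9 is also induced by glucocorticoids, hormones that act on Per1 as well, so that both genes stand in more than 1 list. Of the 9 genes of a glucocorticoid list, 3 of 8 tested rose in alveolar progenitors, Klf9, Fkbp5 (1.18, SE 0.30) and Glul (1.11, SE 0.27), and 7 of 9 rose in fibroblasts, led by Ddit4 (2.88, SE 0.33), Glul (1.65, SE 0.18), Tsc22d3 (1.52, SE 0.19) and Errfi1 (1.30, SE 0.22). None of the 9 passed in hormone-sensing cells. In T cells 2 of the 9 rose and 1 fell, in dendritic cells 2 rose and in macrophages 1 rose. The medians of this list were 0.87 in alveolar progenitors and 1.21 in fibroblasts.

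Genes that respond to tissue dissociation and stress differed between the groups as well. In fibroblasts 5 of 13 rose, led by Hspa1a (2.82, SE 0.19), Hspa1b (2.46, SE 0.24), Dnajb1 (1.98, SE 0.25) and Dusp1 (1.5, SE 0.21), and none fell. In alveolar progenitors 1 of 13 fell, Nr4a1 (-1.57, SE 0.39, adjusted p = 0.0284), and none rose. In hormone-sensing cells none of the 13 passed (median -0.39). Outside these classes 6 of 13 rose in dendritic cells, 5 in natural killer cells and 2 in T cells, and none fell. None passed in vascular endothelium (median 1.59), pericytes (1.3), macrophages (0.32) or B cells (0.68). The part of these responses in the values of the clock genes was not tested.

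Cold replicate 1 recurred as the highest of the 4 libraries: over the 10 tested classes it was highest in 6 for Dbp, 5 for Tef, 6 for Nr1d1, 6 for Nr1d2, 6 for Per2 and 7 for Bhlhe41, and lowest in 5 for Arntl. It was highest in 2 for Hlf, 3 for Per3 and 3 for Ciart, and lowest in 3 each for Per3 and Ciart. Genes whose pattern was most like that of a member were sought over 40 sums of a class in a library, after each class's mean of log2 (CPM + 5) was taken out. Among genes of at least 20 CPM on average, those closest to Dbp of 6483 were 2 other members, Bhlhe41 (Pearson r = 0.77) and Tef (0.75), then Serinc3 (0.70), Mbd1 (0.68) and Slc45a4 (0.66). Arntl, itself under 20 CPM on average, had r = -0.59, and 6452 of the genes compared lay above it. For Per2, also under 20 CPM on average, the closest were Bag5 (0.72), Slc25a28 (0.63), Trappc3 (0.61), Lmbrd1 (0.60) and Zmiz1 (0.60). For Arntl they were Tax1bp3 (0.74), Pstk (0.67), Col4a1 (0.66), Crlf2 (0.62) and Traf4 (0.61), and Bhlhe41 stood almost at the other end (-0.64, 6481 of 6484 genes above it). These are descriptions over sums that share 4 libraries and their depth.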

How the data were processed

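Single-cell libraries of the inguinal SVF were made on the 10x platform, per the labels' protocols. The deposited files hold raw UMI counts per gene and barcode, which the authors made with Cell Ranger 3.0.2 on GRCm38 (mm10), per the submitters' processing notes, which also name Seurat. The lowest barcode held 500 UMIs.

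Barcodes were kept from 500 genes upward and below 15% mitochondrial UMIs, predicted doublets were removed (132, 74, 239 and 79 in cold 1, cold 2, room temperature 1 and room temperature 2), and 3929, 2971, 5232 and 3065 cells remained, with medians of 6666 to 7556 UMIs. Cells were clustered (2000 variable genes, 30 components, Leiden resolution 1; scikit-learn 1.9.0, leidenalg 0.10.2) without the members and clock lists, and named from fixed markers. UMIs were summed per class and library and, with at least 20 cells in each library, tested with edgeR 4.0.16 (TMM, filterByExpr, quasi-likelihood, two-sided, Benjamini-Hochberg over all genes at 0.05; R 4.3.3). With 2 libraries in each group, the smallest p of an exact permutation test is 0.333.

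The members and lists were chosen with earlier results of these data known. The text names all 10 members, at most 4 called genes per list and main class by size of change, and the 5 genes most like Dbp, Per2 and Arntl. Alternatives were RLE scaling, DESeq2 1.42.0, no count filter, a replicate block, each library left out, a looser cell filter (200 genes, 25%), doublets kept, resolution 2, thinning to 1500 UMIs and, added after seeing the data, single clusters. The fit was tested on simulated counts. The list of other clock genes is given without its counts and median because an item in it is not reported here.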

Additional observations from a re-analysis of the deposited data

Results flagged for a closer look

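The cold effect differed between cell classes, by the test of the difference itself, in 6 comparisons of a gene between 2 classes. The adjustment ran over the genes of each pair of classes alone. The log2 difference for Bhlhe41 was 1.45 between hormone-sensing cells and fibroblasts and 1.54 between alveolar progenitors and fibroblasts. For Tef it was 2.17 between alveolar progenitors and macrophages, 2.13 between alveolar progenitors and T cells, and 1.70 between alveolar progenitors and vascular endothelium. For Hlf it was 3.30 between alveolar progenitors and T cells, where Hlf had 8 to 16 UMIs per library.

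In classes too small to test, Tef in Schwann cells had 119.1 and 124.8 CPM in cold against 73.6 and 40.8 CPM at room temperature, from 8, 7, 5 and 2 UMIs. Ciart in neutrophils had 408.7 and 191.9 CPM in cold, from 27 and 9 UMIs, and no UMI in either room-temperature library, where 3 UMIs stand for 94.4 and 116.6 CPM. These cells numbered 39 and 22 in cold and 19 and 14 at room temperature, and neither difference was tested. Some members lay lower in cold in these small classes, without overlap. In Schwann cells Nr1d1 had 74.4 and 35.65 CPM in cold against 177 and 122 CPM, from 5, 2, 12 and 6 UMIs. Nr1d2 there had 29.8 and 0 CPM against 88.3 and 61.2 CPM, from 2, 0, 6 and 3 UMIs. In basal cells Per3 had 33.1 and 13.9 CPM against 62.7 and 49.0 CPM, from 11, 5, 39 and 51 UMIs. Hlf there had 9.03 and 5.56 CPM against 16.1 and 20.2 CPM. These were not tested either.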

How the results depend on the processing

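No member's fold change reversed sign after being called. In hormone-sensing cells DESeq2 called 2 members and the fit with no count filter 1, against 0. In alveolar progenitors leaving out each library gave 0 to 6 against 6, with 0 only without cold replicate 1. In fibroblasts, against 1, the fit with no filter gave 7, the replicate block 7, leaving out each library 0 to 4, and the Pi16-led and Postn-led clusters alone 0 each. Over the other tested classes, against 0, no filter gave 4 and the replicate block 4. With the block, 1180 of 11175 genes passed in macrophages (1 member) and 1257 of 10088 in T cells (3 members). For differences among classes, against 1, no filter gave 7. The share of all genes passing with no filter is not given for these classes and differences. Those counts are therefore not read as results about the members. The cause of these shifts was not tested. Of all genes, hormone-sensing cells had 1 call against 92 with DESeq2 and 51 with no filter. Alveolar progenitors had 168 against 54, 299 and, leaving out libraries, 15 to 389. Fibroblasts had 341 against 1470 with no filter, 1135 with the block and 3 to 760. The labels do not say that replicate numbers pair the libraries, and same-numbered libraries deviated together with correlations of -0.29 to 0.44 across genes. With 2 libraries a group, a lone library left by an omission is assumed to vary like the other group. Depth limited Ciart, Per2 and Arntl in alveolar progenitors, which had 0 to 26 UMIs per library. Thinned to 1500 UMIs, the mean share of fibroblasts with Per2 was 3.345% in cold and 1.125% at room temperature, against 6.55% and 1.655% at 3000 UMIs.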
